A study of Homo sapiens with 12 samples.

Results

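The 47 genes described here encode the proteins that license, unwind and copy chromosomal DNA and that supply its building blocks. They were measured by RNA sequencing in LN229, an established human glioblastoma line, after exposure to metformin and in control culture. The genes were chosen by symbol from a fixed list, and each symbol was found as 1 row among the 21462 genes of the files. All 47 had a mean of at least 1 TPM (a transcript level corrected for exon length, with the same total in each library) over the 12 libraries, as did 11313 genes in all, and so entered every test on TPM. Of the 47, 46 also had a mean of at least 10 intron reads, and POLD4 did not.

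The metformin group was 6 libraries of LN229 cells given 100 mM metformin, for 5 h according to the legend of the study. The control group was 6 libraries of the same line, which the labels list with no treatment and the legend as given vehicle. Both groups carry the IDH wild-type genotype of this single line and were grown in serum-containing medium. The study's methods describe each library as an independent experiment, while the labels name no cultures or batches, so p-values measure the spread between these libraries of 1 line. The comparison asked how metformin changed the transcriptome of these tumour cells.

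DNA replication begins with licensing. The origin recognition complex (ORC1 to ORC6) together with CDC6 and CDT1 loads the ring-shaped MCM2 to MCM7 helicase onto origins, and geminin (GMNN) and the CUL4 adaptor DTL restrain CDT1. CDC45 and the GINS complex then turn the helicase on, primase with DNA polymerase alpha lays primers, the RFC clamp loader places the PCNA sliding clamp, and polymerases delta and epsilon extend the strands while RPA covers single-stranded DNA. Ribonucleotide reductase (RRM1 and RRM2), thymidylate synthase (TYMS) and thymidine kinase (TK1) supply deoxynucleotides. Many of these genes are transcribed at the G1/S transition under the E2F factors, which the RB family holds in check, and dividing tumour cells express them strongly.

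Because E2F control is the textbook link between these genes, their promoters were read for it. RefSeq windows on build GRCh38.p14, each running 250 bases before to 50 bases after a gene's start, matched 41 of the 47 by symbol. An E2F match was taken as TTTCCCGC, TTTCGCGC, TTTGCCGC or TTTGGCGC on either strand, and 19 of 41 windows (46.3%) held one, against 908 of 27305 windows (3.33%) over all genes. The CCAAT box (CCAAT) was found in 58.5% of the 41 windows and in 35.7% of all windows. The GC box (GGGCGG) was found in 68.3% of the 41 and in 44.6% of all, on either strand and with matches of different motifs allowed to overlap. These letter matches describe the windows and are not evidence of binding. The 4 windows below belong to MCM7, PCNA, GINS1 and ORC5, and capitals mark the E2F matches. TPM of MCM7 and PCNA in 5 of 6 metformin libraries lay above every control library. The same held for ORC6, whose window is not shown and held no E2F match. GINS1 and ORC5 had the largest falls with all libraries. Counting from 1 at the gene's start, the matches began at bases -187 and -9 in MCM7, at -59 in PCNA and at 6 in GINS1, and the ORC5 window held none.
MCM7, chr7:100101348-100101647, minus strand: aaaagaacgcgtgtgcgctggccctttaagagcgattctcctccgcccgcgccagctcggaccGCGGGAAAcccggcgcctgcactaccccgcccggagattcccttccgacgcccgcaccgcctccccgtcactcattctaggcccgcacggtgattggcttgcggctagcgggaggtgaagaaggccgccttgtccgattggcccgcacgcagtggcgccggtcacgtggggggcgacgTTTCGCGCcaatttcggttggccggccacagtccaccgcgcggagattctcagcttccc
PCNA, chr20:5126573-5126872, minus strand: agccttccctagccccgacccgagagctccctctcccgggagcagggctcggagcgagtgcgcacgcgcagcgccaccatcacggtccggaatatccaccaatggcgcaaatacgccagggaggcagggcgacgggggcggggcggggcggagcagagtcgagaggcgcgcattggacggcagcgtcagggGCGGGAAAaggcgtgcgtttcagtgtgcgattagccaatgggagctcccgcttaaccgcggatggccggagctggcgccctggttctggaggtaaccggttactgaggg
GINS1, chr20:25407423-25407722, plus strand: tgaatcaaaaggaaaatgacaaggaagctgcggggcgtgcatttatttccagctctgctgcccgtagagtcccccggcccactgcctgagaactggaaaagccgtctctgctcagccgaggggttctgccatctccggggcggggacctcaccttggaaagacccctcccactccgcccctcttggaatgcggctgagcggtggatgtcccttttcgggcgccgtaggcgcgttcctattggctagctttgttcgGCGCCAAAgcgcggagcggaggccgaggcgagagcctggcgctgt
ORC5, chr7:104207964-104208263, minus strand: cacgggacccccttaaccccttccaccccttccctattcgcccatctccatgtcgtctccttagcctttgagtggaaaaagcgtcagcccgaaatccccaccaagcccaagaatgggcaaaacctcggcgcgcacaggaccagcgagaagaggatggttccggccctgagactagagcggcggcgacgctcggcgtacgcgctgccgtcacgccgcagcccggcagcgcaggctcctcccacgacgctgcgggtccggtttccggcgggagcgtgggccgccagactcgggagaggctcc

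Libraries held 14331617 to 19516144 exon reads in metformin and 19583535 to 21836186 in control. Metformin replicate 1 stood apart, with the fewest exon reads and 38.1% of them across exon junctions, where the other metformin libraries had 45.7 to 48.1% and control libraries 44.7 to 46.7%. The 47 genes made up 0.337% of all TPM in metformin replicate 1, 0.496 to 0.581% in the other metformin libraries and 0.562 to 0.618% in control, so values are given with and without that library where it matters. The median gene of all 11313 shifted by -0.36 on the log2(TPM + 1) scale, which median-ratio scaling of the libraries brought to 0.01, and changes are therefore given both as deposited and relative to the typical gene. Of the glial markers, GFAP, SOX2 and S100B were at or near 0 in both groups, with no library above 0.559 TPM, whereas OLIG2 had a median of 3.46 TPM in metformin and 7.58 TPM in control, with no overlap. Vimentin (VIM) had a median of 1029 TPM in metformin (450 to 1107) and 928 TPM in control (879.5 to 938.9). Medians of NES, CD44 and EGFR were 40.41, 235.1 and 21.15 TPM in metformin and 50.82, 244.5 and 39.14 TPM in control. Of these, EGFR alone had groups that did not overlap. Markers of leukocytes (PTPRC), epithelium (EPCAM), endothelium (PECAM1) and oligodendrocytes (MBP) had medians of at most 0.184 TPM in either group. Of the other markers, CD68 (macrophages) had medians of 21.47 TPM in metformin and 21.54 TPM in control, and RBFOX3 (neurons) of 4.30 and 6.09 TPM, and their part in the results was not tested. Bulk RNA cannot tell fewer cells in S phase from less RNA per cell.

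In TPM as deposited, 24 of the 47 genes fell and 1, MCM7, rose (limma, Benjamini-Hochberg adjusted p under 0.05 over all genes), which is 53.2% of them against 49.8% of all genes tested. By direction, 41.8% of all genes fell and 8.0% rose, so the count of the 47 lies near that of the transcriptome. Their median change was -0.41, beside -0.36 for all genes. After median-ratio scaling 15 fell and 8 rose, with a median of 0.01. That is 48.9% of them against 48.6% of all genes, 25.9% lower and 22.7% higher. The 15 that fell after scaling had all fallen in TPM as well, and fell again without metformin replicate 1, whereas 9 of the 24 were not called once scaled. Single genes ranged from -1.07 for GINS1 to 0.79 for ORC6 on the scaled log2 axis. Between the groups, 23 of the 47 had all 6 metformin libraries below all 6 control libraries and none had all of them above, where 37.3% and 4.68% of all genes did so. Without metformin replicate 1, 32 of the 47 fell and 4 (MCM7, ORC6, PCNA and GMNN) rose, or 76.6% of them against 66.4% of all genes (49.3% lower, 17.1% higher). With edgeR on exon reads, 15 fell and 7 rose, or 46.8% against 50.4% of all genes. Quantile normalization, which gives every library the same distribution of values, brought the median of all genes to -0.036 and left that of the 47 at -0.27. There 26 of the 47 fell and 1, ORC6, rose, beside 47.9% of all genes called, 27.2% lower and 20.7% higher. The 15 genes that fell after median-ratio scaling all fell here too, but of the 8 that rose after it ORC6 alone was called higher, and RRM2 and TYMS were called lower. In what follows, scaled means median-ratio scaling. Several calls also depend on metformin replicate 1. Without it, MCM6, ORC4, CDT1, POLD2, RFC5, RPA1, RPA3 and LIG1 were called lower as deposited as well. After scaling and without it, MCM4, CDC6, POLA1, RFC5, RRM1 and TK1 were called higher as well, and MCM3 lower.

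**Figure D1:**
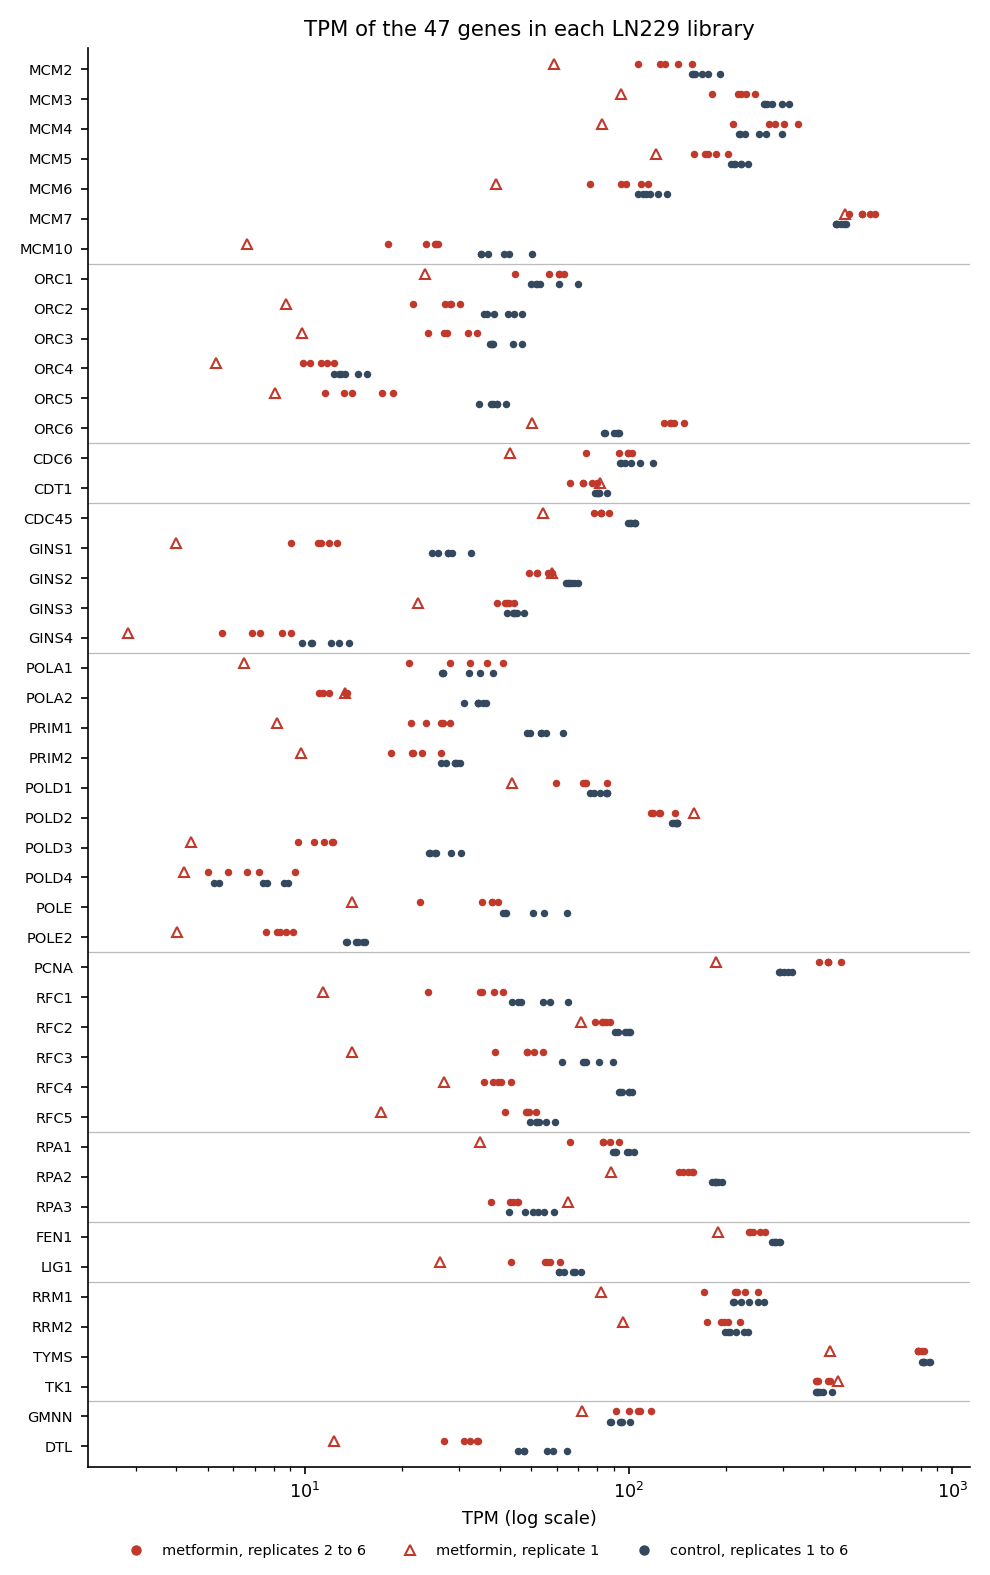
TPM (log axis) of each of the 47 genes in 6 metformin libraries (red, the open triangle being replicate 1) and 6 control libraries (dark), grouped by role. ORC5, GINS1, PRIM1, POLD3, RFC4 and POLA2 show metformin points clear below control points, while replicate 1 lies far to the left of its group in most genes.

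**Figure D2:**
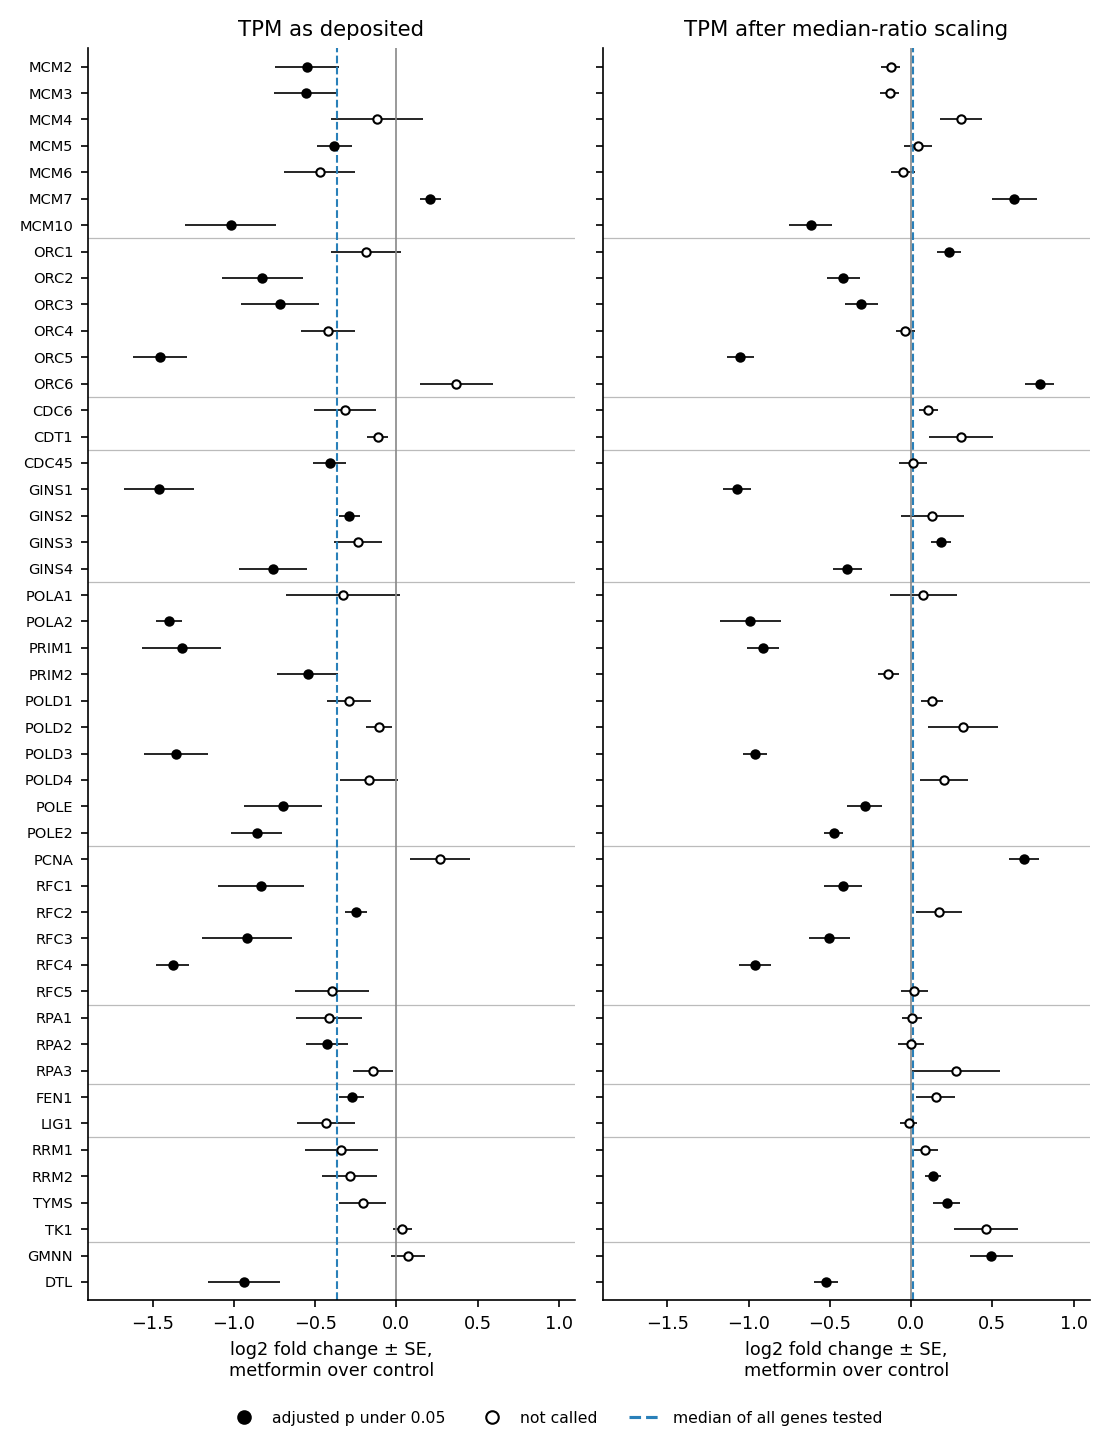
Log2 fold change of metformin over control with its standard error for each of the 47 genes, from TPM as deposited (left) and after median-ratio scaling (right). Filled points passed an adjusted p under 0.05 and the dashed line is the median of all genes tested, -0.36 at left and 0.01 at right.

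The MCM2 to MCM7 ring changed unequally. MCM7 (chromosome 7, 100092728 to 100101940, minus strand) had 466, 526 and 578 TPM as lowest, median and highest value in metformin, against 436, 447 and 470 TPM in control. All but the lowest metformin library lay above every control library. MCM7 rose by 0.21 ± 0.06 (log2, SE) as deposited and by 0.64 ± 0.14 after scaling (limma, adjusted p = 0.0146 and 0.00196), but was not called after quantile normalization (0.025; limma, adjusted p = 0.78). MCM2, a subunit that also chaperones histones at the fork, had 58.9, 127 and 157 TPM in metformin, against 157, 165 and 192 TPM in control. Its groups touched at a single pair of libraries, and the log2 change of -0.55 (limma, adjusted p = 0.033) became -0.13 and was not called after scaling (limma, adjusted p = 0.098). MCM3 and MCM5 also fell as deposited but were not called after scaling. MCM4 and MCM6 were called on neither of these scales with all libraries. After quantile normalization MCM2, MCM3, MCM5 and MCM6 were called lower, with log2 changes of -0.55 to -0.34, and MCM4 was not called. Without replicate 1, MCM6 fell as deposited (-0.25; limma, adjusted p = 0.031) and MCM4 rose after scaling (0.43; limma, adjusted p = 3.92e-05). The summed TPM of the 6 ring subunits was 863, 1422 and 1632 in metformin and 1392, 1456 and 1631 in control. MCM7 supplied 35.4 to 54.0% of that sum in metformin and 28.4 to 31.5% in control, with no overlap, and 35.4 to 39.6% in metformin without replicate 1.

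MCM10, which is not a ring subunit but helps activate the loaded helicase, fell most of this group. It had 6.64, 24.4 and 25.8 TPM in metformin, against 35.0, 39.0 and 50.3 TPM in control. Every metformin library was below every control library, and the log2 change was -1.02 ± 0.28 as deposited and -0.62 ± 0.13 after scaling (limma, adjusted p = 0.0087 and 0.00197).

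The origin recognition complex held the highest change of the 47, in ORC6, and one of the lowest, in ORC5. ORC5 (chromosome 7, 104126341 to 104208047, minus strand), an AAA+ family subunit, had 8.08, 13.6 and 18.7 TPM in metformin, against 34.5, 38.7 and 41.8 TPM in control. The highest metformin library thus lay far below the lowest control library. ORC5 fell by 1.46 ± 0.16 on the log2 scale as deposited and by 1.05 ± 0.08 after scaling (limma, adjusted p = 1.24e-05 and 4.15e-07). ORC6 (chromosome 16, 46689643 to 46698394, plus strand), the smallest subunit, had 50.2, 135 and 148 TPM in metformin, against 84.1, 91.1 and 93.5 TPM in control. Replicate 1 was the 50.2 and lay below all control libraries, while the other metformin libraries, at 129 to 148 TPM, lay above all of them. ORC6 was not called as deposited (0.37 ± 0.22; limma, adjusted p = 0.19), but rose after scaling (0.79 ± 0.09; limma, adjusted p = 9.96e-06) and as deposited without replicate 1 (0.61; limma, adjusted p = 1.91e-07). ORC1, the ATPase subunit that anchors the complex in G1, rose after scaling by 0.23, but had a log2 change of -0.18 as deposited and was not called there. ORC2 and ORC3 fell on both scales, and ORC4 was called on neither.

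Summed ORC TPM had medians of 272 in metformin and 274 in control. Within that sum the makeup differed, since ORC6 made up 47.2 to 53.6% in metformin and 29.3 to 34.5% in control. ORC5 made up 4.78 to 7.64% in metformin and 12.8 to 14.4% in control. Neither pair of ranges overlapped, and replicate 1 lay inside the metformin range for ORC6.

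Of the licensing genes, CDC6, which brings the helicase to ORC, and CDT1, which escorts it, were called on neither scale with all libraries. Without replicate 1, CDT1 fell as deposited (-0.14; limma, adjusted p = 0.027) and CDC6 rose after scaling (0.12; limma, adjusted p = 0.034). GMNN (chromosome 6), the CDT1 inhibitor, had 71.9, 104 and 117 TPM in metformin, against 87.7, 94.3 and 101 TPM in control. These ranges overlapped at both ends, and the change of 0.07 as deposited was not called, while it rose by 0.49 ± 0.13 after scaling (limma, adjusted p = 0.00826) and was not called after quantile normalization (0.20; limma, adjusted p = 0.077). DTL (chromosome 1, 212035553 to 212107400, plus strand), which directs the CUL4 ubiquitin ligase to CDT1 on PCNA, had 12.3, 31.7 and 34.3 TPM in metformin, against 45.6, 51.7 and 64.3 TPM in control. No metformin library reached the lowest control library, and DTL fell by 0.94 ± 0.22 as deposited and by 0.52 ± 0.08 after scaling (limma, adjusted p = 0.00351 and 8.33e-05).

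Among the helicase activators, GINS1 (chromosome 20, 25407673 to 25452628, plus strand), the PSF1 subunit of GINS, had the lowest log2 change of the 47 genes with all libraries, close to that of ORC5. Without replicate 1 its change of -1.25 came after those of POLA2 (-1.42), ORC5 (-1.32) and RFC4 (-1.29). GINS1 had 4.01, 11.1 and 12.6 TPM in metformin, against 24.7, 27.7 and 32.6 TPM in control. The highest metformin library lay far below the lowest control library, and the log2 change was -1.46 ± 0.21 as deposited and -1.07 ± 0.08 after scaling (limma, adjusted p = 0.000111 and 3.71e-07). GINS4 fell on both scales, while CDC45 and GINS2 fell as deposited and were not called after scaling. CDC45 was called lower after quantile normalization (-0.27; limma, adjusted p = 0.000177). GINS3 had 22.3, 41.8 and 44.3 TPM in metformin, against 42.2, 44.4 and 47.5 TPM in control. Its direction turned with the scaling, from -0.23 without a call as deposited to a called 0.18 (limma, adjusted p = 0.0267) after scaling. GINS1 thus made up 4.60 to 11.2% of summed GINS TPM in metformin and 17.3 to 21.0% in control.

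Primers and DNA strands are made by the polymerases, and 6 of their 10 genes fell as deposited, 5 of them after scaling too. PRIM1 (chromosome 12), the catalytic primase subunit, had 8.23, 25.0 and 28.0 TPM in metformin, against 48.6, 53.6 and 62.6 TPM in control. POLD3 (chromosome 11, 74493851 to 74669117, plus strand), the delta subunit that binds PCNA and also serves break-induced replication, had 4.44, 11.1 and 12.2 TPM in metformin, against 24.1, 25.4 and 30.3 TPM in control. Metformin libraries lay below control libraries throughout for both genes. PRIM1 fell by 1.32 ± 0.24 as deposited and by 0.91 ± 0.10 after scaling, and POLD3 fell by 1.35 ± 0.20 and by 0.96 ± 0.08 (limma, adjusted p at most 0.000648). POLE2, the second subunit of polymerase epsilon, had 4.03, 8.30 and 9.19 TPM in metformin, against 13.4, 14.5 and 15.3 TPM in control, again without overlap, and fell by 0.86 and, scaled, by 0.48 (limma, adjusted p = 0.000614 and 2.14e-05). The catalytic subunits POLA1 and POLD1 and the small subunits POLD2 and POLD4 were called on neither scale, while the catalytic subunit POLE fell on both, by 0.70 and by 0.29.

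POLA2, the regulatory subunit of polymerase alpha, needs a reservation. It had 11.02, 12.6 and 13.5 TPM in metformin, against 30.9, 34.3 and 36.2 TPM in control, and fell by 1.40 ± 0.08 as deposited and by 0.99 ± 0.19 after scaling (limma, adjusted p = 4.47e-08 and 0.0007). Only 36.5% of its exon reads were uniquely mapped, and 43662 bases of it are shared with the same-strand gene AP000944.5. On uniquely mapped reads alone the log2 change was -0.43 ± 0.42 and was not called (edgeR, adjusted p = 0.41), so its level is uncertain. TYMS (58.8% unique) and POLD4 (36.9%) were uncertain in the same way. For PRIM1 84.0% of exon reads were unique and its fall was called on them (-0.93, edgeR, adjusted p = 1.33e-05).

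At the clamp, PCNA was high in 5 of 6 metformin libraries, while 4 of the 5 subunits of its loader fell as deposited and 3 after scaling. PCNA (chromosome 20, 5114953 to 5126626, minus strand) had 186, 413 and 452 TPM in metformin, against 291, 298 and 320 TPM in control. As with ORC6, replicate 1 was the lowest of all libraries and the other metformin libraries, from 386 to 452 TPM, were the highest. The log2 change was 0.27 ± 0.18 as deposited, which was not called (limma, adjusted p = 0.24), 0.69 ± 0.09 after scaling (limma, adjusted p = 3.92e-05) and 0.46 as deposited without replicate 1 (limma, adjusted p = 1.17e-06), but was not called after quantile normalization (0.22; limma, adjusted p = 0.23). RFC4 (chromosome 3, 186789880 to 186807058, minus strand), a core subunit of the loader, had 26.9, 38.9 and 43.2 TPM in metformin, against 93.5, 97.7 and 102 TPM in control. Every metformin library lay far below the lowest control library, and RFC4 fell by 1.38 ± 0.10 and, scaled, by 0.96 ± 0.10 (limma, adjusted p = 3.29e-07 and 4.53e-06). RFC3, another core subunit, had 14.02, 48.4 and 54.4 TPM in metformin, against 62.4, 73.3 and 89.7 TPM in control, and fell by 0.92 and, scaled, by 0.50 (limma, adjusted p = 0.0148 and 0.00547). RFC1 fell on both scales, RFC2 only as deposited, and RFC5 on neither. RFC4 made up 14.9 to 19.1% of summed RFC TPM in metformin and 23.5 to 28.4% in control.

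RPA and the lagging-strand enzymes were not called after median-ratio scaling, whereas RPA1, RPA2, FEN1 and LIG1 were called lower after quantile normalization, by 0.19 to 0.40 on the log2 scale. RPA2 had 88.0, 149.8 and 158 TPM in metformin, against 181, 186 and 195 TPM in control, without overlap. It fell by 0.43 as deposited (limma, adjusted p = 0.0146) and differed by -0.0030 after scaling, where none of the 3 RPA genes was called. RPA3, the smallest subunit, had 37.5, 44.6 and 64.9 TPM in metformin, against 42.9, 51.6 and 58.6 TPM in control, with full overlap. FEN1, the flap nuclease that trims Okazaki fragments, had 189, 239.5 and 263 TPM in metformin, against 278, 284 and 294 TPM in control. FEN1 fell by 0.28 as deposited (limma, adjusted p = 0.00945) but had a log2 change of 0.15 after scaling, which was not called. LIG1, which seals the nicks, had 26.1, 55.5 and 61.3 TPM in metformin, against 61.1, 65.4 and 71.1 TPM in control, and was called on neither scale with all libraries, though it fell without replicate 1 (-0.26 as deposited; limma, adjusted p = 0.012).

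None of the 4 nucleotide supply genes was called as deposited. RRM2, the S-phase subunit of ribonucleotide reductase, had 96.0, 195 and 221 TPM in metformin, against 199, 211 and 234 TPM in control. Its log2 change of -0.29 ± 0.17 as deposited was not called (limma, adjusted p = 0.18), and after scaling the sign turned to a called 0.14 ± 0.05 (limma, adjusted p = 0.0343), while quantile normalization gave a called -0.28 (limma, adjusted p = 0.0381). RRM1, the large subunit, had 82.4, 214.5 and 250.3 TPM in metformin, against 211, 229 and 261 TPM in control. TK1, of the salvage pathway, had 379, 399 and 444 TPM in metformin, against 379, 388 and 426 TPM in control. Ranges of RRM1 and TK1 overlapped, and neither gene was called on either scale with all libraries. TYMS rose by 0.22 after scaling (limma, adjusted p = 0.0447) and fell by 0.45 after quantile normalization (limma, adjusted p = 0.0236), but on unique reads its change was 0.04 (edgeR, adjusted p = 0.90). With scaling and without replicate 1, all 4 were called higher, by 0.14 to 0.27 on the log2 scale, as were 33.4% of all genes.

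Reads within introns are taken to come mostly from RNA not yet spliced, which was not tested here. TPM does not use them. In this readout 33 of 46 genes were called, 13 higher and 20 lower (edgeR quasi-likelihood test, adjusted p under 0.05), or 71.7% against 61.5% of all 11122 genes tested. Over all genes 31.3% rose and 30.2% fell. All metformin libraries lay above control for 8 of the 46 genes and below control for 16, as for 16.7% and 20.1% of all genes. Without replicate 1 the counts were 17 higher and 25 lower, 91.3% of the 46 against 74.5% of all genes (36.5% higher, 38.0% lower), and the 13 and the 20 were all called again. Exon-based and intron-based change parted for many of these genes. Across the 46, the scaled TPM change and the intron change had Pearson's r = 0.35 and Spearman's rho = 0.32, where 9920 genes in all had 0.59 and 0.55. These points share the same 12 libraries, and genes are not independent replicates. Tested directly, the ratio of exon to intron reads rose in 10 genes and fell in 11 (limma, adjusted p under 0.05), 45.7% of the 46 against 32.0% of all genes (13.6% higher, 18.4% lower). Without replicate 1 it rose in 12 and fell in 18, beside 55.9% of all genes (21.5% higher, 34.4% lower). In 15 of the 46 the scaled TPM change and the intron change had opposite signs. How many of the 9920 genes did so was not counted, so this count only describes the 46.

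**Figure D3:**
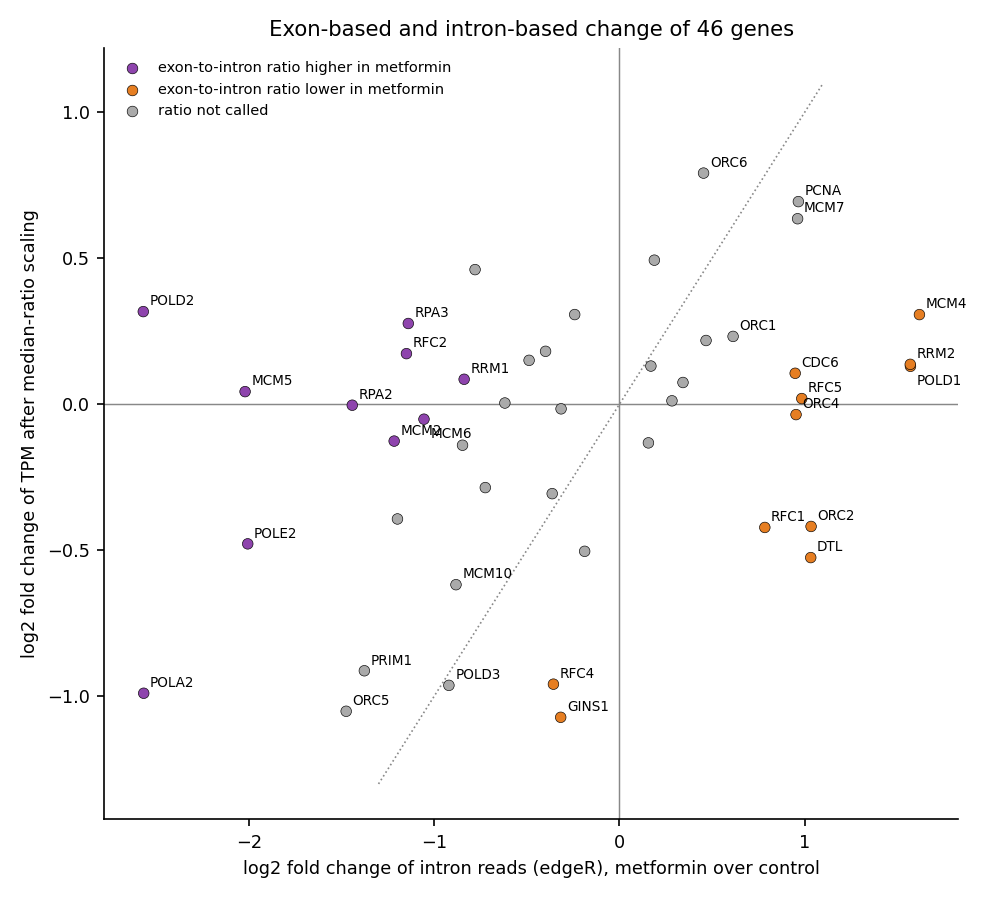
Change of scaled TPM (vertical, log2 fold change, metformin over control) against change of intron reads (horizontal, log2 fold change from edgeR) for 46 genes, coloured by whether the exon-to-intron ratio was called higher (purple), lower (orange) or not (grey). POLD2, MCM5 and POLA2 lie far left at -2.57, -2.02 and -2.57, MCM4, POLD1 and RRM2 far right at 1.62, 1.57 and 1.57, and the dotted line marks equal change. Intron reads of POLA2 cannot be assigned to it alone, since it shares 43662 bases with AP000944.5.

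In one set of genes, intron reads fell while scaled TPM had no called change with all libraries. The set rests on median-ratio scaling. Of its genes, MCM2, MCM5, RPA2, PRIM2 and RFC2 were called lower in TPM as deposited. MCM2, MCM5, MCM6, RPA1 and RPA2 were called lower after quantile normalization. POLD2, an accessory subunit of polymerase delta, had 7.89, 19.3 and 31.5 intron CPM (intron reads over the library's intron total as corrected by TMM, edgeR's scaling) in metformin, against 87.2, 109 and 126 in control. No metformin library reached a level near the lowest control library. Its intron reads fell by 2.57 ± 0.24 (log2; edgeR, adjusted p = 5.82e-07) and its exon-to-intron ratio rose by 2.72 ± 0.26 (limma, adjusted p = 1.4e-05), whereas its TPM of 117, 124 and 159 in metformin overlapped 136, 141 and 141.5 TPM in control. Introns thus made up 0.809% of the reads of POLD2 in metformin and 5.04% in control. MCM5, chosen after its values were seen, had 50.2, 63.8 and 107 intron CPM in metformin, against 232, 274 and 326 in control. These groups did not overlap either, and MCM5 intron reads fell by 2.02 ± 0.19 (edgeR, adjusted p = 5.17e-07). TPM of MCM5 did not overlap either, at 121, 174 and 202 in metformin and 207, 218 and 234 in control.

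RPA2 belonged to the same set, with 7.87, 23.9 and 29.4 intron CPM in metformin, against 55.2, 59.7 and 75.5 in control. They fell by 1.44 ± 0.21 (edgeR, adjusted p = 3.16e-05), with all metformin libraries below control. Intron reads of RPA1, RPA3, MCM2, MCM6, PRIM2, RFC2, RRM1 and TK1 also fell, by 0.62 to 1.22, with no called change in their scaled TPM. RPA3 had only 5 to 11 intron reads in metformin and 18 to 29 in control, and replicate 1 lay above control in CPM. It shares 77897 bases with UMAD1 on the opposite strand, whose median intron reads were 51 in metformin and 105.5 in control. The intron fall therefore cannot be assigned to RPA3 alone. The set held 11 genes in all, and the ratio rose in 8 of them and was not called in RPA1, PRIM2 and TK1. The share of all genes that would fall in such a set was not counted. The missing call does not make scaled TPM equal, since its change was 0.46 ± 0.20 in TK1 and 0.32 ± 0.22 in POLD2, and scaled TPM of TK1 was called higher without replicate 1 (0.27; limma, adjusted p = 0.016). TK1 had 47.2, 78.4 and 101 intron CPM in metformin, against 127, 137 and 140 in control, with no overlap.

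In another set, intron reads were high. RRM2 had 982, 1140.4 and 2346.6 intron CPM in metformin, against 394, 441 and 489 in control. The lowest metformin library was above every control library, and replicate 1 was the 2346.6. RRM2 is annotated over 91028 bases with 5915 exon bases, so these reads need not all be its own unspliced RNA. RRM2 intron reads rose by 1.57 ± 0.20 (edgeR, adjusted p = 1.03e-05), and by 1.31 without replicate 1 (edgeR, adjusted p = 3.46e-10), while its exon-to-intron ratio fell by 1.55 ± 0.21 (limma, adjusted p = 0.000167). MCM4 (chosen after its values were seen) had 86.6, 415 and 549 intron CPM in metformin, against 115, 127 and 148 in control. Replicate 1 was its lowest, below control, and the other metformin libraries, from 367 to 549, were above all control libraries. MCM4 intron reads rose by 1.62 ± 0.30 (edgeR, adjusted p = 0.000302), with no call in its TPM on either scale unless replicate 1 was left out of scaled TPM, as given above. POLD1 (likewise chosen) had 319, 347 and 489.5 intron CPM in metformin, against 95.9, 123 and 167 in control, with no overlap, and rose by 1.57 ± 0.16 (edgeR, adjusted p = 1.3e-06). The intron share of POLD1 reads was 16.8% in metformin and 6.02% in control, next to POLD2, in the same polymerase, whose share moved the other way. Intron reads of ORC4, CDC6, CDC45 and RFC5 also rose, by 0.28 to 0.98 (edgeR, adjusted p at most 0.0479). Their scaled TPM was not called with all libraries. The exon-to-intron ratio fell in ORC4, CDC6 and RFC5 and was not called in CDC45.

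For DTL, ORC2 and RFC1 the readouts were opposite and both called, with scaled TPM lower and intron reads higher, as for 1.81% of the 9920 genes with both readouts. DTL had 81.8, 87.7 and 457 intron CPM in metformin, against 67.1, 72.2 and 75.2 in control. The 457 was replicate 1, and the rise of 1.03 ± 0.39 (edgeR, adjusted p = 0.0333) was 0.32 without that library (edgeR, adjusted p = 0.0111). ORC2 (chosen after its values were seen) had 166, 197 and 214 in metformin, against 76.8, 95.5 and 117 in control. All of its metformin libraries were above control, and its intron reads rose by 1.03 ± 0.13 (edgeR, adjusted p = 1.04e-05) while its scaled TPM fell by 0.42 ± 0.10 (limma, adjusted p = 0.00439). RFC1 intron reads rose by 0.79 (edgeR, adjusted p = 0.000786). GINS3 alone was opposite the other way, with scaled TPM higher and intron reads lower by 0.40 (edgeR, adjusted p = 0.0317), as for 1.41% of genes. Its exon-to-intron ratio was not called (0.39; limma, adjusted p = 0.25), and its intron CPM groups overlapped. GINS3 is annotated from base 58295080, while its promoter window begins at 58392221, so its intron reads need not all be its own. Its TPM was not called after quantile normalization (0.064; limma, adjusted p = 0.33).

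**Figure D4:**
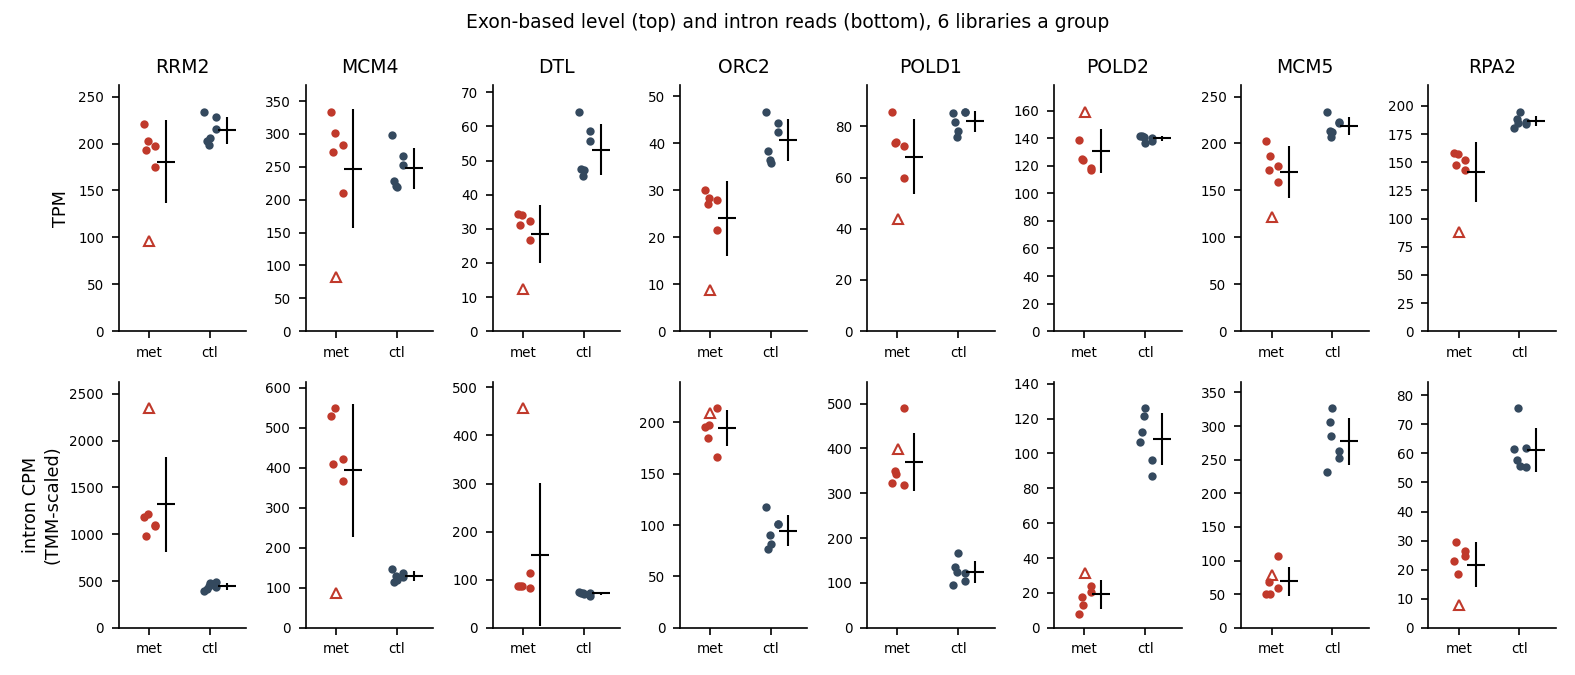
TPM (top row) and TMM-scaled intron CPM (bottom row) of 8 genes in 6 metformin libraries (met, red, the open triangle being replicate 1) and 6 control libraries (ctl, dark), with the mean and SD of each group beside the points. RRM2, DTL, ORC2 and POLD1 have all metformin intron values above control, POLD2, MCM5 and RPA2 all below, and MCM4 all above except replicate 1.

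In the remaining set, both readouts fell. ORC5 had 17.2, 25.8 and 39.5 intron CPM in metformin, against 54.9, 74.5 and 79.6 in control, without overlap. Its intron change of -1.47 ± 0.20 (edgeR, adjusted p = 1.93e-05) stands beside -1.05 in scaled TPM, and its ratio was not called. MCM10, POLD3, PRIM1, GINS4, POLE, POLE2 and POLA2 likewise fell in scaled TPM and in intron reads. That makes 8 of the 15 genes that fell after scaling, and how often this held over all genes was not counted. The fall of POLA2 in exon reads was, however, not called on uniquely mapped reads. POLA2 also shares 43662 of its 43670 bases with AP000944.5, so the intron fall cannot be assigned to POLA2 alone. PRIM1 had 1.55, 5.83 and 17.7 intron CPM in metformin, against 13.3, 15.5 and 18.9 in control, where replicate 1 was the 17.7 and overlapped. These rest on 2 to 9 intron reads in metformin and 16 to 32 in control. PRIM1 shares 10240 bases with the same-strand gene AC117378.1, so its intron reads cannot be assigned to it alone. For GINS1 and RFC4 the intron change was not called with all libraries (-0.32 and -0.36; edgeR, adjusted p = 0.27 and 0.12) and their ratios fell by 0.97 and by 0.77. Without replicate 1 both were called, at -0.57 and -0.50 (edgeR, adjusted p = 0.00283 and 0.00929). Of the genes that rose after scaling, MCM7, ORC1, PCNA and RRM2 also rose in intron reads. PCNA had 15.7, 157 and 191 intron CPM in metformin, against 62.8, 69.2 and 92.0 in control, with replicate 1 the 15.7 and all others above control.

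The share of exon reads that cross a splice junction was not called for any of the 47 genes (limma, adjusted p under 0.05), against 1.80% of all genes tested. RPA3 alone passed an unadjusted p under 0.05, as did 6.19% of all genes. Replicate 1 lay far below the other metformin libraries in many genes, though not in CDC45 or PCNA. It had 9.07% in MCM2 and 5.53% in RPA1, where the others had 44.0 to 54.2% and 41.5 to 56.9%. Of all 11277 genes, 203 were called with it and 606 without it. Missing calls with all libraries therefore do not show equal shares. RRM2 was called when replicate 1 was left out and when each library's median was subtracted. Its junction share was 15.9% in replicate 1, 42.3 to 49.2% in the other metformin libraries and 37.4 to 42.9% in control.

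With all 12 libraries, shorter and more abundant genes tended to have the higher scaled changes. These relations were not computed without replicate 1. Across the 47, the scaled TPM change had r = -0.44 and rho = -0.55 with log10 gene length, and r = 0.48 and rho = 0.54 with log10 control TPM. Over all 11313 genes these were -0.08 and -0.09 for length and 0.10 and 0.19 for level. E2F letter matches stood in 4 of 8 promoters of genes that rose after scaling and in 7 of 13 of those that fell.

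Neighbouring pathways were read from lists of genes chosen by function. Of all genes tested, 8.0% rose and 41.8% fell as deposited, and 22.7% rose and 25.9% fell after scaling. Counts of this and the following lists are to be read beside those shares. Of 21 further licensing and firing regulators, none rose and 6 fell as deposited, and 5 rose and 5 fell after scaling. CDC7, the kinase that fires licensed origins, had 5.93, 19.97 and 21.2 TPM in metformin, against 42.5, 46.4 and 56.5 TPM in control, and fell by 1.53 (limma, adjusted p = 0.000292). CUL4B, the ligase scaffold that DTL serves, rose after scaling by 0.69 (limma, adjusted p = 0.000154), but was not called as deposited (0.28). Of 13 fork protection and checkpoint genes 8 fell as deposited and 6 after scaling, and none and 4 rose. The ATR activators and partners ETAA1 and ATRIP fell by 1.67 and by 1.41 (limma, adjusted p = 8.18e-07 and 1.04e-07), and WEE1, the kinase that restrains CDK1, rose after scaling by 1.00 (limma, adjusted p = 2.35e-05) without a call as deposited (0.60).

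Among 21 fork-associated and chromatin replication genes, 1 rose and 11 fell as deposited, and 1 rose and 8 fell after scaling. POLE4, a histone-fold partner of polymerase epsilon, rose by 0.43 as deposited (limma, adjusted p = 0.0407) and by 0.85 after scaling. CHTF8, part of an alternative clamp loader, fell by 1.61 (limma, adjusted p = 6.84e-05). Of 34 other nucleotide genes none rose and 13 fell as deposited, and 5 rose and 8 fell after scaling. UMPS and DHODH, consecutive enzymes of pyrimidine synthesis, fell by 1.40 and by 1.17 as deposited (limma, adjusted p = 1.91e-06 and 3.32e-06). After scaling they fell by 0.99 and by 0.80. UMPS had 9.78, 16.2 and 16.8 TPM in metformin, against 37.4, 39.4 and 44.0 TPM in control, with no overlap.

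Of 21 E2F and RB regulators, 3 rose and 9 fell as deposited, and 5 rose and 6 fell after scaling. CDKN1A, the p21 inhibitor of CDK2 that also binds PCNA, had 793, 955 and 997 TPM in metformin, against 338, 346 and 357 TPM in control. CDKN2D, the p19 inhibitor of CDK4 and CDK6, had 76.5, 83.4 and 95.9 TPM in metformin, against 18.0, 19.95 and 23.8 TPM in control. All metformin libraries were above all control libraries for both, replicate 1 included. CDKN1A rose by 1.43 ± 0.06 and CDKN2D by 2.02 ± 0.09 (limma, adjusted p = 4.61e-09 and 5.15e-09), and by 1.86 and 2.43 after scaling. E2F2, an activating E2F factor, had 2.52, 3.92 and 4.75 TPM in metformin, against 10.98, 11.6 and 13.7 TPM in control. It fell by 1.47 as deposited (limma, adjusted p = 1.89e-06) and by 1.11 after scaling.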

How the data were processed

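RNA of 12 LN229 libraries (6 metformin, 6 control, grouped by GEO's labels) was sequenced, with 1 deposited table per library. TPM and RPKM were calculated by the authors and correct for exon length and library size. Raw counts in the deposited tables are of exon, intron and junction-spanning reads. Fractions of a gene's reads in those tables were made by the authors and were left unused. The aligner, the counter and any strand setting are not stated there or in the study's methods, so overlapping genes cannot be separated. Mouse builds (GRCm38, mm10) stand in the submitters' processing notes, yet human GENCODE 29 holds 21377 of the 21462 gene identifiers, and 23 of the 47 genes with identical ends. Gene coordinates are the files' own.

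The study names limma and TPM. Here limma 3.58.1 (R 4.3.3) compared the groups, and log2(TPM + 1), a trended prior, no covariates and a mean of 1 TPM or more were choices of the re-analysis. A fold change on this scale understates the change of low genes. Intron reads took edgeR 4.0.16 (quasi-likelihood, TMM, mean of at least 10 reads). The exon-to-intron ratio and the junction share took limma on log2 ratios with 0.5 reads added, and all p-values were Benjamini-Hochberg adjusted over all genes tested. Alternatives were median-ratio scaling, quantile normalization, RPKM, edgeR and DESeq2 1.42.0 on exon reads, other filters, pseudocounts and weights, a replicate block, and leaving out each library. Uniquely mapped reads, and scaling or edgeR without metformin replicate 1, were chosen after seeing the data. The 47 genes and all lists were chosen with earlier results of these data known. Values by library were given for the 10 genes with the largest change, the highest and lowest of each role, PCNA, RRM2 and MCM2. From each pathway list, genes could be named from the 2 with the largest called changes in each direction.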

Additional observations from a re-analysis of the deposited data

Results flagged for a closer look

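The 94 sets of 6 TPM values share the same 12 libraries and are not independent. In 15 of these 94 sets, 1 library lay further from the other 5 than Dixon's 95% limit allows. Chance does so in about 1 of 20 sets. In 14 of the 15 sets that library was metformin replicate 1. It was the lowest in ORC4 (5.32 TPM), ORC6 (50.2), CDC45 (54.5), GINS3 (22.3), PRIM1 (8.23), POLD3 (4.44), POLE2 (4.03), PCNA (186), RFC5 (17.2), RPA2 (88.0), RRM2 (96.0), TYMS (419.7) and DTL (12.3), and the highest in RPA3 (64.9). CDT1 was apart in control replicate 6, at 85.9 TPM.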

How the results depend on the processing

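The balance of directions in TPM changed with median-ratio scaling and the count models, and not with quantile normalization. Counts higher and lower, 1 and 24 as deposited, were 8 and 15 with median-ratio scaling (22.7% and 25.9% of all genes), 1 and 26 with quantile normalization (20.7% and 27.2%), 7 and 15 with edgeR (24.5% and 25.9%), 11 and 17 with DESeq2 (28.9% and 26.4%), 6 and 14 with edgeR on uniquely mapped reads (24.3% and 25.7%), 2 and 30 with RPKM (9.46% and 48.3%), and 6 and 33 with array weights (24.4% and 51.7%). Without metformin replicate 1 they were 14 and 16 after scaling (33.4% and 33.5%) and 12 and 17 with edgeR (32.4% and 34.3%). The median change of the 47, -0.41, became 0.012 with scaling, 0.027 with DESeq2 and 0.0039 with edgeR on unique reads, and -0.0013 with edgeR, -0.0082 with scaling and -0.023 with edgeR, the last pair without metformin replicate 1, while quantile normalization gave -0.27. Leaving out each library in turn gave 1 to 4 higher and 19 to 32 lower in TPM with a median of -0.47 to -0.26, 10 to 17 higher and 18 to 25 lower in intron reads, 9 to 12 higher and 10 to 18 lower in the ratio, and 0 to 1 in junction share. Without metformin replicate 1 the ratio fell in 18 genes. Junction share called 1 gene with library medians subtracted.

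Of the 47 genes, 20 had the other sign after median-ratio scaling, 8 after quantile normalization, 18 with edgeR and 21 with DESeq2. Among the genes given by library under the naming rule, a sign turned with a call on at least 1 side in 5. GINS3 was 0.18 with scaling, 0.17 with edgeR, 0.19 with DESeq2, 0.17 on unique reads, and 0.17 and 0.15 without metformin replicate 1 (scaling, edgeR). FEN1 was 0.15, 0.15, 0.18, 0.16, 0.045 and 0.031 in the same order. RRM2 was 0.14 with scaling, 0.15 with DESeq2, and 0.14 and 0.13 without that replicate. RRM1 was 0.15 and 0.13 without it, and RPA2 was 0.0040 with DESeq2. For the single genes, 1258 of the alternative values kept direction and call, 69 gained a call, 42 lost it and 19 reversed. The cause of these changes was not tested.

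Replicate numbers did not pair the libraries (correlations of deviations from -0.65 to 0.72, and only replicate 3 matched its own number best). With the replicate block, counts were 1 and 24 in TPM, 10 and 19 in intron reads, 10 and 10 in the ratio and 0 in junction share. Depth limits the intron readout, since metformin replicate 1 had 620866 intron reads and POLD4 could not be tested.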

Other observations

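Genes of mitosis form a further list. Of 25 mitotic genes, 2 rose and 7 fell in TPM as deposited, and 8 rose and 4 fell after scaling (limma, adjusted p under 0.05). Over all genes, 8.0% rose and 41.8% fell as deposited, and 22.7% rose and 25.9% fell after scaling. In intron reads 15 of 25 rose and 3 fell (edgeR, adjusted p under 0.05), beside 31.3% and 30.2% of all genes. NUSAP1, which bundles spindle microtubules, had 102, 298 and 313 TPM in metformin, against 144, 162 and 169 TPM in control, with replicate 1 the 102. It rose by 0.62 ± 0.24 as deposited and by 1.05 ± 0.10 after scaling (limma, adjusted p = 0.0462 and 1.68e-06). UBE2C, a ubiquitin-conjugating enzyme of the anaphase-promoting complex, had 496, 560.2 and 772 TPM in metformin, against 341, 387 and 416 TPM in control, with no overlap. It rose by 0.60 as deposited (limma, adjusted p = 0.000417) and by 1.03 after scaling. HMMR, a spindle factor, had 5.48, 38.7 and 45.2 TPM in metformin, against 67.6, 74.6 and 88.1 TPM in control. It fell by 1.41 as deposited (limma, adjusted p = 0.0128) and by 1.00 after scaling. NDC80, of the outer kinetochore, had 13.2, 27.4 and 33.8 TPM in metformin, against 56.0, 60.3 and 61.6 TPM in control. It fell by 1.20 as deposited (limma, adjusted p = 0.000124) and by 0.79 after scaling. Both HMMR and NDC80 were below control in every metformin library.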
